A study of Drosophila melanogaster with 12 samples.

Results

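The 10 genes described here encode the enzymes that carry glucose to pyruvate in Drosophila melanogaster: Hex-A, Pgi, Pfk, Ald, Tpi, Gapdh1, Gapdh2, Pgk, Eno and PyK. They were taken by name, as the rows of the deposited table whose gene name equals a member, and all 10 were found among 16272 gene names. All 10 also passed the filter on low counts, so no member was lost. Their levels were compared in 4 cell populations sorted from the optic lobe. On scaled counts, T4 cells had the lowest mean of 8 of the 10 transcripts, and either Pm2 cells or glia had the highest mean of each. Hex-A, the first enzyme of the pathway, was the only member with its lowest mean in Pm2.

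Glycolysis breaks glucose down to pyruvate in the cytosol and yields a small amount of ATP and NADH. Hexokinase traps glucose in the cell, phosphofructokinase commits it to the pathway, and the later enzymes recover ATP from triose phosphates. In the fly brain, glia are known to break down the circulating sugar trehalose and to pass products of glycolysis to neurons, which oxidise them in their mitochondria.

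RNA came from T4 neurons, columnar cells of the ON motion pathway, from Pm2 neurons of the proximal medulla, from neurons in general, sorted with the Elav driver, and from glia, sorted with the Repo driver. All flies were 3-day-old Canton-S adults in which a Gal4 line for the cell type drove the nuclear red fluorescent reporter UAS-Red Stinger. Each population had 3 libraries, 12 in all, and the last 2 populations served the study as controls. The labels do not say whether libraries came from separate animals, so p-values measure the spread between libraries, which may be technical. Each population had its own driver line, so population and line cannot be told apart, and the Elav population can itself contain T4 and Pm2 cells. The libraries were sequenced 3 to a lane, and since the labels do not say which shared one, lane and population cannot be told apart either.

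Library totals ran from 35012892 to 57811629 counts. The 6 pan-neuronal markers (elav, nSyb, brp, Syt1, Rdl and para) summed to 9115 to 13003 CPM (counts per 1000000 counts of a scaled library total) in the 9 neuronal libraries and to 262 to 306 CPM in glia. The 7 pan-glial markers (repo, Gs2, alrm, nrv2, Eaat1, moody and CG1732) summed to 37682 to 47108 CPM in glia, 513 to 819 in neurons, 148 to 158 in T4 and 30.5 to 57.1 in Pm2, where repo was at 0. As a share of the glial mean, that was at most 1.92% in neurons and at most 0.369% in T4 and Pm2. The markers fitted the labels for neurons and glia; no markers particular to T4 or Pm2 were used. The scaling was edgeR's trimmed mean of M values, TMM, unless another is named. In sorted bulk samples, fewer cells with a transcript and less RNA per cell cannot be told apart.

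**Figure D1:**
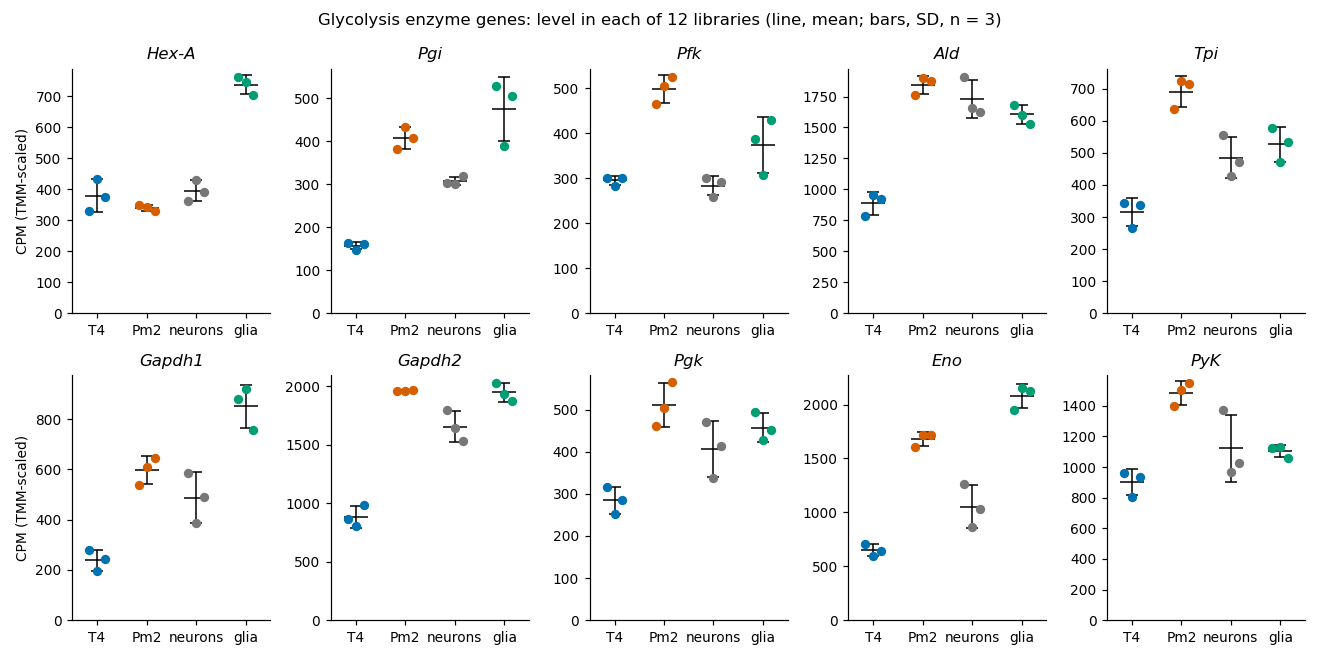
Each panel plots 1 gene, with its TMM-scaled CPM (linear axis from 0) in the 3 libraries of each population as points, the mean as a line and the SD as bars. The 3 T4 libraries lie below every glial library in all 10 panels, and in the Hex-A panel glia lie above 3 neuronal populations whose means run from 340.1 to 394 CPM.

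The investment steps opened with the member that behaved least like the rest. Hex-A, the hexokinase that phosphorylates glucose (FBgn0001186, X:9585675-9589813, + strand, Ensembl annotation of BDGP6), was at 762, 744 and 703 CPM in glia, against 363, 430.0 and 389.9 CPM in neurons, 330.2, 434 and 374 CPM in T4 and 348, 344 and 329 CPM in Pm2. Every glial library stood above all 9 neuronal libraries, and the 3 neuronal populations lay close together. The glial mean of 736 ± 30.4 CPM was 1.87 times the neuronal mean of 394 ± 33.8 CPM (SD, n = 3 each). The log2 difference was 0.90 ± 0.11 (SE) with an edgeR adjusted p of 2.58e-05. Between T4 and Pm2, whose means were 379 ± 52.2 and 340.1 ± 9.57 CPM, the ranges overlapped and the difference was not called (log2 0.16 ± 0.11, edgeR adjusted p = 0.303). A difference was called where the adjusted p was below 0.05.

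Pgi, the isomerase that turns glucose phosphate into fructose phosphate (FBgn0003074, 2R:8910900-8914069, - strand), had 164, 147 and 160.3 CPM in T4, 381, 432 and 407 CPM in Pm2, 303, 301 and 319 CPM in neurons, and 529, 390.0 and 505 CPM in glia. The T4 libraries were the lowest by a wide margin, and the ranges of Pm2 and glia overlapped because glial replicate 2 was low. The T4 mean of 157 ± 8.71 CPM was below the Pm2 mean of 407 ± 25.6 CPM by 1.37 on the log2 scale, written as -1.37 ± 0.12 (edgeR adjusted p = 6.26e-06). Pgi was also higher in glia than in neurons (475 ± 74.3 against 308 ± 10.1 CPM, log2 0.63 ± 0.12, edgeR adjusted p = 0.000663). Without glial replicate 2 its difference between Pm2 and glia, -0.22 with all libraries (edgeR adjusted p = 0.119), was -0.36 and called (edgeR adjusted p = 0.00545).

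Pfk, the phosphofructokinase that makes the committed step (FBgn0003071, 2R:10109740-10117457, + strand), had another order. It was at 464, 506 and 526 CPM in Pm2, 388, 307 and 429.7 CPM in glia, 302, 283 and 301 CPM in T4, and 299.7, 259 and 292 CPM in neurons. The Pm2 libraries stood above all others, while T4 and neurons overlapped. The Pm2 mean of 499 ± 31.5 CPM exceeded the neuronal mean of 284 ± 21.7 CPM (log2 0.82 ± 0.13, edgeR adjusted p = 0.000462) as well as the T4 mean of 295 ± 10.4 CPM (T4 minus Pm2 -0.76 ± 0.13, edgeR adjusted p = 0.000715). It was the member with the largest difference between Pm2 and neurons, and T4 did not differ detectably from neurons (log2 0.06 ± 0.12, edgeR adjusted p = 0.798).

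In the steps that split the sugar, every T4 library lay below all libraries of the other populations. Ald, the aldolase that cleaves fructose bisphosphate into triose phosphates (FBgn0000064, now named Ald1, 3R:26254069-26261591, - strand), was at 785, 954 and 924 CPM in T4 and at 1761, 1898 and 1877 CPM in Pm2. It was at 1904, 1656 and 1622 CPM in neurons and 1681, 1603 and 1532 CPM in glia. No T4 library reached the lowest value of any other population, and the other 3 populations overlapped except that all Pm2 libraries were above all glial ones. T4 (887 ± 90.3 CPM) was lower than neurons (1727 ± 154 CPM) by a log2 difference of -0.96 ± 0.10 (edgeR adjusted p = 0.000107). Glia (1605 ± 74.9 CPM) and neurons were not called different (log2 -0.11 ± 0.10, edgeR adjusted p = 0.373).

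Tpi, which interconverts the triose phosphates (FBgn0086355, 3R:30132981-30134599, - strand), was at 344, 266 and 339 CPM in T4, 635, 723 and 714 CPM in Pm2, 556, 429 and 471 CPM in neurons, and 579, 471 and 533 CPM in glia. Pm2 was the highest group and T4 the lowest, with neurons and glia overlapping between them. The Pm2 mean of 691 ± 48.3 CPM was above the neuronal mean of 485 ± 64.7 CPM (log2 0.51 ± 0.14, edgeR adjusted p = 0.0133) and the glial mean of 527 ± 54.4 CPM (log2 0.39 ± 0.14, edgeR adjusted p = 0.0259). The T4 mean was 316 ± 43.4 CPM, -1.13 ± 0.14 from Pm2 on the log2 scale (edgeR adjusted p = 8.23e-05).

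Gapdh1 and Gapdh2 are paralogs for the enzyme that oxidises glyceraldehyde phosphate and makes NADH. Gapdh1 (FBgn0001091, 2R:7791901-7793380, - strand) had 278, 196 and 242 CPM in T4, 536, 610.4 and 647 CPM in Pm2, 587, 386 and 491 CPM in neurons, and 879.8, 919.7 and 756 CPM in glia. Glia stood above every neuronal library and T4 below every other one. The ratio of the glial mean (852 ± 85.2 CPM) to the T4 mean (239 ± 41.4 CPM) was 3.57, the widest spread of population means among the 10 members. Gapdh1 was higher in glia than in neurons (488 ± 101 CPM) by a log2 difference of 0.80 ± 0.17 (edgeR adjusted p = 0.00145) and lower in Pm2 (598 ± 56.4 CPM) than in the glial libraries (log2 -0.51 ± 0.17, edgeR adjusted p = 0.0205). The latter was not called without Pm2 replicate 1 (log2 -0.44, edgeR adjusted p = 0.0747), with library totals (-0.26, 0.25), with no scaling (-0.27, 0.223) or after quantile normalization with limma (-0.40, 0.0828).

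Gapdh2 (FBgn0001092, X:15868145-15869661, + strand) was the more abundant copy in every library. It was at 863, 804 and 984 CPM in T4, 1959.9, 1964 and 1967 CPM in Pm2, 1794, 1641 and 1532 CPM in neurons, and 2031, 1937 and 1876 CPM in glia. Pm2 and glia overlapped, and T4 lay far below the rest. The T4 mean of 884 ± 91.5 CPM differed from the Pm2 mean of 1964 ± 3.63 CPM by -1.15 ± 0.10 on the log2 scale (edgeR adjusted p = 4.83e-06). Pm2 and glia (1948 ± 78.1 CPM) were not called different, with a log2 difference of 0.01 ± 0.10 (edgeR adjusted p = 0.936).

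Per kilobase of exon, the ratio of Gapdh2 to Gapdh1 within a library was 2.16 to 2.54 for glia, 3.12 to 3.75 for Pm2, 3.13 to 4.36 for neurons and 3.18 to 4.21 for T4. The glial ratios did not overlap those of the 9 neuronal libraries. Reads that fit both copies could have been misassigned or left out in the authors' counting, so the single levels and their sum are uncertain. The summed level of both was 1000 to 1226 CPM in T4, 2023 to 2381 CPM in neurons, 2496 to 2614 CPM in Pm2 and 2632 to 2911 CPM in glia. These 4 ranges did not overlap on the TMM scale. With library totals in place of TMM, the ranges of neurons, Pm2 and glia overlapped, and T4 stayed lowest.

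The payoff steps opened with Pgk, the kinase that makes the first ATP of the pathway (FBgn0250906, 2L:2746880-2753068, - strand). It was at 316, 251 and 286 CPM in T4, 460.3, 504 and 565 CPM in Pm2, 471, 337 and 412 CPM in neurons, and 494, 427 and 450.3 CPM in glia. T4 was again the lowest group, and the ranges of the other 3 overlapped, with means of 510.0 ± 52.6 CPM in Pm2, 457 ± 34.3 CPM in glia and 407 ± 67.0 CPM in neurons. The T4 mean of 284 ± 32.2 CPM differed from Pm2 by -0.84 ± 0.14 on the log2 scale (edgeR adjusted p = 0.000765).

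Eno, the enolase that makes phosphoenolpyruvate (FBgn0000579, 2L:1724768-1729636, - strand), showed the largest excess of glia over the mixed neurons among the members. It was at 1952, 2156 and 2130.1 CPM in glia, 1602, 1717 and 1715 CPM in Pm2, 1261, 861 and 1033 CPM in neurons, and 706, 595 and 644 CPM in T4. The 4 ranges did not overlap at any point. The glial mean of 2079 ± 111 CPM was above the neuronal mean of 1052 ± 201 CPM by 0.98 ± 0.13 on the log2 scale (edgeR adjusted p = 4.45e-05). The Pm2 mean of 1678 ± 65.8 CPM lay between them and was called against neurons (log2 0.67 ± 0.13, edgeR adjusted p = 0.00212) but not against glia (log2 -0.31 ± 0.13, edgeR adjusted p = 0.0554). The T4 mean was 648 ± 55.5 CPM, -1.37 ± 0.13 from Pm2 (edgeR adjusted p = 1.36e-05).

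PyK, the pyruvate kinase that makes pyruvate and ATP (FBgn0267385, 3R:22367536-22372746, + strand), had 961, 805 and 938 CPM in T4, 1398, 1505 and 1547 CPM in Pm2, 1372, 968 and 1029 CPM in neurons, and 1124, 1132 and 1059 CPM in glia. Pm2 was the highest group, T4 the lowest, and glia fell inside the neuronal range. This was the flattest member, with a ratio of 1.65 between the highest and the lowest population mean. The Pm2 mean of 1483 ± 77.0 CPM exceeded the T4 mean of 901 ± 84.4 CPM (T4 minus Pm2 -0.72 ± 0.13, edgeR adjusted p = 0.00139). Glia (1105 ± 39.9 CPM) and neurons (1123 ± 218 CPM) were not called different (log2 -0.02 ± 0.13, edgeR adjusted p = 0.889).

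Some members share bases with a neighbour, and the library kit does not mark strand, so reads there cannot be assigned. Ald shares 8.87% of its exon length with the opposite-strand RNA CR44321, Eno 9.74% with Rrp40 and Pgk 3.08% with Cwc25. As counted, the partners were low, at 0.534 to 2.20, 0.861 to 9.52 and 12.2 to 60.9 CPM over the 12 libraries. Reads in shared bases may be missing from these counts too, so the effect of the overlap was not tested.

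**Figure D2:**
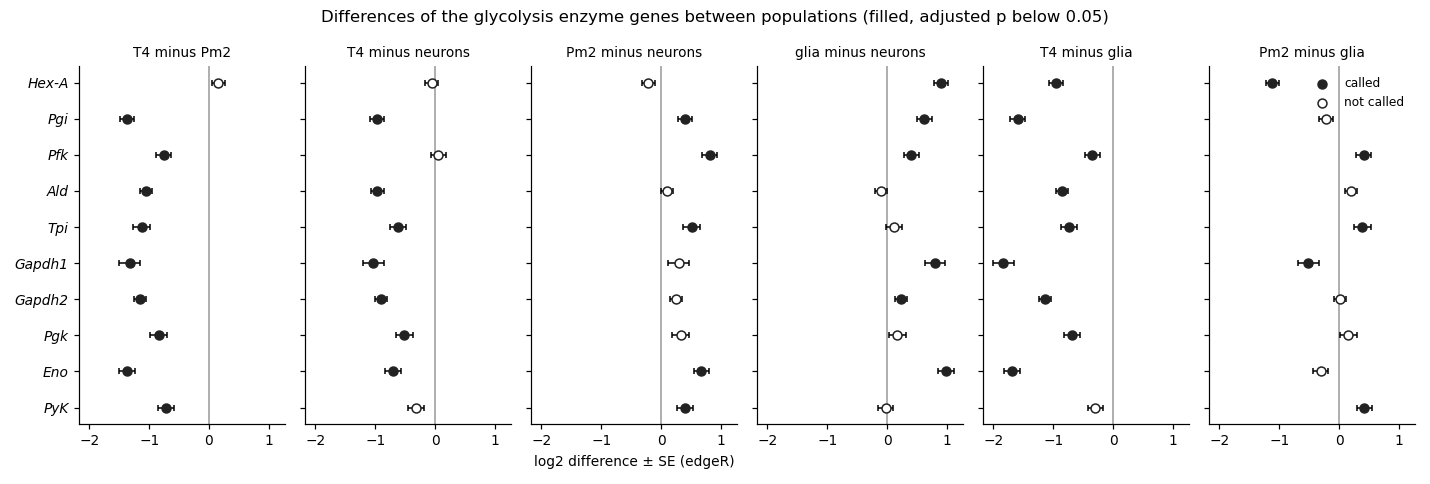
Each panel is 1 comparison of 2 populations, with the log2 difference of each gene on the x axis and its SE from edgeR as bars. Filled points had an adjusted p below 0.05, and in the panel of T4 minus Pm2 the 9 genes other than Hex-A lie between -1.37 and -0.72.

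Between the 2 single neuron types, glycolytic transcripts were lower in T4 at every step except the first. Of the 10 members, 9 were lower in T4 than in Pm2 and 1, Hex-A, was not called, against 18.4% of all genes tested called lower in T4, 18.0% called higher and 36.4% called in either direction. The same 9 had ranges that did not overlap, against 57.4% of all genes. The median log2 difference was -1.09 over the members and 0 over all 10528 genes tested. Pgi and Eno differed most, at -1.37 each, followed by Gapdh1 at -1.32 ± 0.17 (edgeR adjusted p = 0.000135). The same 9 were called in each of the 17 alternatives tried, which included leaving out each library. With library totals in place of TMM scaling, Hex-A was called too, and higher in T4 (log2 0.32, edgeR adjusted p = 0.0421).

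Set against the mixed neurons, T4 was lower for 7 members and higher for none, against 14.5% of all genes called lower and 8.67% called higher (23.2% in either direction). The members' median log2 difference was -0.66, and that of all genes -0.06. The 7 were Pgi, Ald, Tpi, both Gapdh genes, Pgk and Eno, with Gapdh1 the furthest away (log2 -1.03 ± 0.17, edgeR adjusted p = 0.00184). Pgi differed by -0.97 ± 0.12 (edgeR adjusted p = 0.00028), Gapdh2 by -0.91 ± 0.10 (edgeR adjusted p = 0.000111), Eno by -0.70 ± 0.13 (edgeR adjusted p = 0.00356) and Tpi by -0.62 ± 0.14 (edgeR adjusted p = 0.00846). The ranges did not overlap for 8 members, against 46.5% of all genes; the eighth was PyK, at -0.32 ± 0.13 (edgeR adjusted p = 0.107). Pgk, at -0.52 ± 0.14 (edgeR adjusted p = 0.0222), was not called without T4 replicate 2 (adjusted p = 0.0881), T4 replicate 3 (0.0559), neurons replicate 1 (0.0816) or neurons replicate 3 (0.065). On counts with no scaling, 5 members were called: Eno, Pgk and Tpi dropped out and Pfk came in as higher in T4 (log2 0.36, edgeR adjusted p = 0.0455).

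Pm2 differed from the mixed neurons in the other direction. Pfk, Eno, Tpi, Pgi and PyK, 5 members, were higher in Pm2 and none was lower, against 15.5% of all genes called higher and 20.1% called lower (35.6% in either direction). Ranges were apart for 7 members, against 58.1% of all genes. The median was 0.36 over the members and -0.08 over all genes. Pgi differed by 0.40 ± 0.12 (edgeR adjusted p = 0.021) and PyK by 0.40 ± 0.13 (edgeR adjusted p = 0.0334). The 5 not called had log2 differences of -0.21 ± 0.11 for Hex-A (edgeR adjusted p = 0.163), 0.10 ± 0.10 for Ald (0.506), 0.29 ± 0.17 for Gapdh1 (0.207), 0.25 ± 0.10 for Gapdh2 (0.0701) and 0.33 ± 0.14 for Pgk (0.0929). The count rested on single libraries: 3 members were called without Pm2 replicate 2 and without Pm2 replicate 3, in both cases without Pgi and PyK, and 2, Pfk and Eno, without neurons replicate 2. Pgi was also not called without neurons replicate 1 (edgeR adjusted p = 0.0588), where Pgk (0.0425) and Gapdh2 (0.049) were, nor PyK without neurons replicate 3 (0.121). With no scaling 9 members were called, all but Hex-A. With library totals and after quantile normalization Hex-A was called lower in Pm2 (log2 -0.31, edgeR adjusted p = 0.048, and -0.37, limma adjusted p = 0.0156), and PyK was not called.

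Glia exceeded the mixed neurons at the first 3 steps, at Gapdh and at Eno, but not at Ald, Tpi, Pgk or PyK. That was 6 members higher and none lower, against 30.9% of all genes called higher, 37.8% called lower and 68.7% called in either direction. The median log2 difference was 0.32 over the members and -0.17 over all genes. Ranges were apart for 6 members, a share below the 71.6% of all genes. Pfk (375 ± 62.6 CPM in glia) differed by 0.40 ± 0.13 (edgeR adjusted p = 0.0138) and was not called without neurons replicate 2 (0.0537). Gapdh2 differed by 0.23 ± 0.10 with an edgeR adjusted p of 0.0497, at the edge of the threshold, and was called in 7 of 15 alternatives; without neurons replicate 2, neurons replicate 3, glia replicate 1 or glia replicate 2 the adjusted p was 0.104, 0.171, 0.0915 and 0.0522. With library totals in place of TMM, 3 members were higher (Hex-A, Pgi and Eno), and Ald (log2 -0.46, edgeR adjusted p = 0.00258) and PyK (-0.38, 0.0383) were lower in glia. Gapdh2 turned to -0.12 on that scale and to -0.15 after quantile normalization.

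On the TMM scale, T4 was below glia for the whole set. All 10 members were lower in every T4 library than in every glial library, against 69.3% of all genes whose ranges were apart in either direction. Of the 10, 9 were called lower, against 32.2% of all genes called lower, 35.6% called higher and 67.8% called in either direction, and the median was -0.91 over the members and 0.06 over all genes. Gapdh1 (-1.83 ± 0.18, edgeR adjusted p = 2.85e-06), Eno (-1.68 ± 0.13, 6.12e-07) and Pgi (-1.59 ± 0.12, 4.29e-07) differed most. PyK was not called (-0.29 ± 0.13, edgeR adjusted p = 0.0661). Pfk, at -0.34 ± 0.13 (edgeR adjusted p = 0.0294), was called in 6 of 17 alternatives, and without T4 replicate 1, 2 or 3, or glia replicate 1 or 3, the adjusted p was 0.0646, 0.0839, 0.0553, 0.055 and 0.0932. With library totals in place of TMM, 6 members were called, without Pfk (log2 0.082), Pgk and Tpi. PyK, also not called there, turned to 0.12 on that scale and to 0.12 after quantile normalization.

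Pm2 and glia had overlapping sums on the TMM scale, and members were called in both directions. Of the members, 3 were higher in Pm2 (Pfk, Tpi and PyK) and 2 in glia (Hex-A and Gapdh1), against 33.8% and 32.2% of all genes called higher and lower; 66.0% were called in either direction. Ranges were apart for 7 members, against 69.0% of all genes. The median log2 difference was 0.08 over the members and 0 over all genes. Hex-A differed most (-1.11 ± 0.11, edgeR adjusted p = 4.91e-06), then PyK (0.42 ± 0.13, 0.0141) and Pfk (0.41 ± 0.13, 0.0126). Tpi was not called without Pm2 replicate 2 (0.0719), Pm2 replicate 3 (0.0707), glia replicate 2 (0.0879) or glia replicate 3 (0.0562), and Eno was called lower in Pm2 without glia replicate 1 (log2 -0.37, 0.0437). Under median-of-ratios scaling Pfk, Tpi and PyK were no longer called, while Eno (-0.45, edgeR adjusted p = 0.00786) and Pgi (-0.37, 0.0194) were called lower in Pm2. Library totals moved the other way: Gapdh1 was not called, and Ald (0.46, 0.0028), Gapdh2 (0.27, 0.042) and Pgk (0.42, 0.0271) were called higher in Pm2, as were Ald (0.45, 0.00543) and Pgk (0.41, 0.0229) with no scaling. The 6 comparisons share libraries and are not independent of each other.

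Added up, the 10 members came to 4736 to 5191 CPM in T4, 7267 to 8909 in neurons, 9546 to 10295 in Pm2 and 9973 to 10420 in glia. The T4 sums lay below all others, and those of Pm2 and glia overlapped. As a share of the unscaled counts the members took 0.519% to 0.582% in T4, 0.769% to 0.966% in neurons, 0.803% to 0.904% in glia and 0.932% to 1.04% in Pm2. On that scale glia fell inside the neuronal range, every Pm2 library lay above every glial one, and T4 stayed lowest. The TMM factors of glia were 0.805 to 0.897 and those of T4 1.10 to 1.14, so the scaling raised glia and lowered T4. Over 5 scalings, the members' median less the median of all genes ran from -1.13 to -0.84 for T4 minus Pm2. It ran from -0.80 to -0.56 for T4 minus neurons, -1.02 to -0.85 for T4 minus glia and 0.28 to 0.49 for glia minus neurons. For Pm2 minus neurons it was 0.06 to 0.46 and for Pm2 minus glia 0.03 to 0.13. All scalings but quantile normalization use at most 1 factor per library, which shifts members and all genes nearly alike. Only quantile normalization could move this difference much, and it gave -0.84, -0.80, -0.85, 0.28, 0.06 and 0.03 in the same order.

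**Figure D3:**
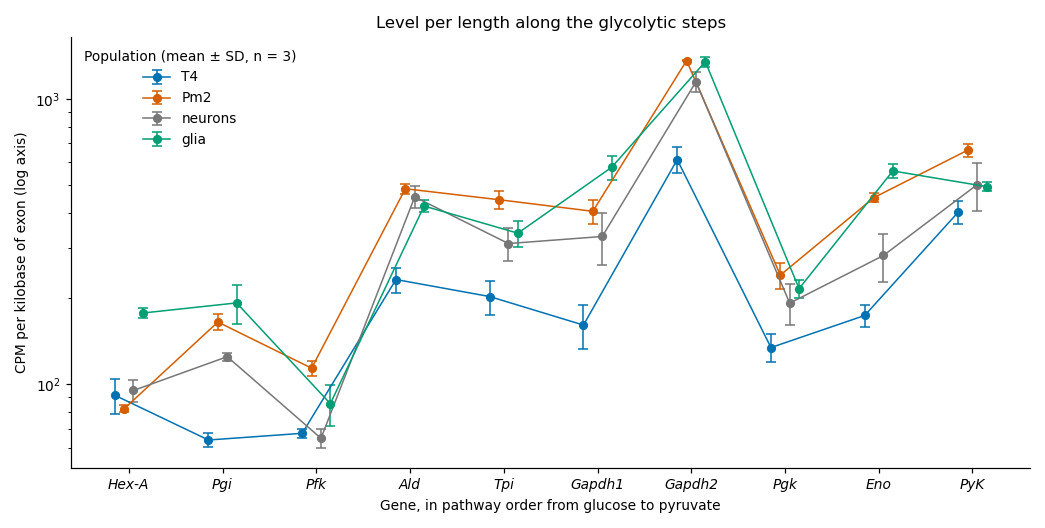
The x axis lists the genes in pathway order and the y axis (log scale) gives CPM per kilobase of exon, as mean ± SD over 3 libraries, with 1 line per population. Gapdh2 is the peak of all 4 lines, and the T4 line lies lowest except at Hex-A and Pfk.

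Along the pathway, transcript levels per length were lowest at the 3 investment steps and peaked at Gapdh2. Per kilobase of annotated exon, Gapdh2 was first in all 4 populations, with 612 ± 63.4 CPM per kb in T4, 1361 ± 2.52 in Pm2, 1147 ± 91.1 in neurons and 1349.9 ± 54.1 in glia (SD, n = 3). PyK came next in T4 (402 ± 37.6 CPM per kb), Pm2 (662 ± 34.4) and neurons (501 ± 97.1), where its range overlapped that of Ald (454 ± 40.4). In glia Gapdh1 (576 ± 57.6 CPM per kb) and Eno (559 ± 29.9) had higher means than PyK (493 ± 17.8). Hex-A, Pgi and Pfk filled the last 3 places in every population, at 63.9 to 193 CPM per kb. The lowest was Pgi in T4 (63.9 ± 3.54), Hex-A in Pm2 (82.2 ± 2.31), and Pfk in neurons (64.8 ± 4.96) and glia (85.6 ± 14.3). Lengths depend on which exons are counted: with the longest transcript in place of all exons, Eno in glia stood at 781 CPM per kb, next after Gapdh2, and Ald passed PyK in glia (609 against 524) and in neurons (655 against 532).

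**Figure D4:**
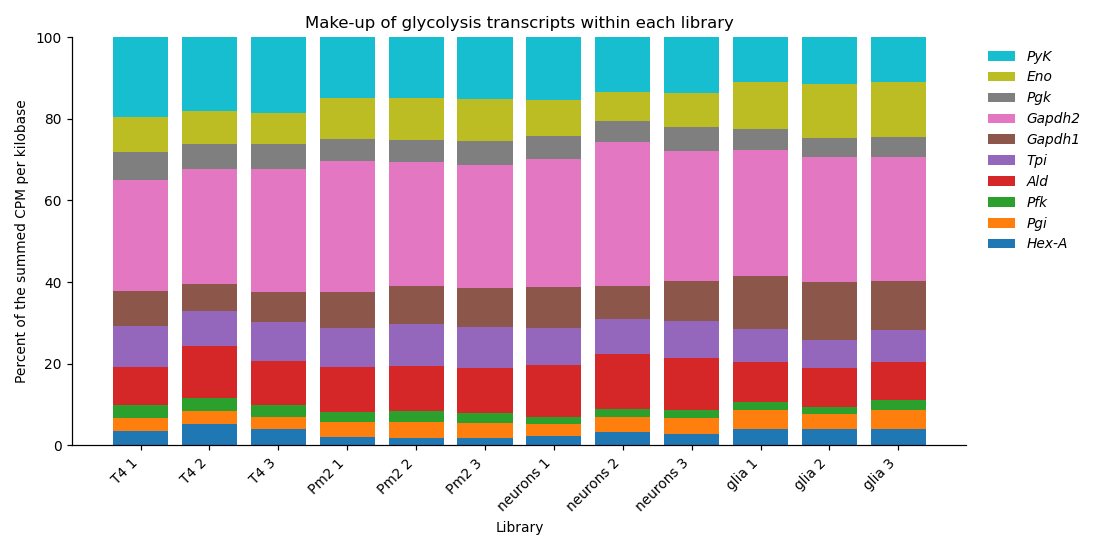
Each bar is 1 library and its segments are the percent of the summed CPM per kilobase that each gene takes. Gapdh2 takes 27.2% to 35.4% in every library, while PyK is widest in T4 and Eno and Gapdh1 in glia.

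The make-up of the pathway within a library does not depend on how libraries are scaled. PyK took 18.1% to 19.5% of the summed level per kb in T4 libraries, with 14.8% to 15.2% for Pm2, 13.4% to 15.5% for neurons and 11.0% to 11.5% for glia. The T4 share was above and the glial share below every other library. Eno took 11.5% to 13.4% in glia, 10.2% to 10.3% in Pm2, 7.67% to 8.64% in T4 and 7.20% to 8.59% in neurons, so that glia led and T4 overlapped the mixed neurons. Gapdh1 took 11.9% to 14.2% in glia, above every neuronal library.

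Hex-A and Pfk, the 2 kinases of the investment steps, moved apart between Pm2 and the rest. Hex-A took 1.75% to 2.00% of the summed level in Pm2, with 2.22% to 3.23% for neurons, 3.96% to 4.10% for glia and 3.63% to 5.30% for T4. The ratio of Pfk to Hex-A per kb was 1.26 to 1.51 for Pm2, 0.617 to 0.864 for T4, 0.569 to 0.781 for neurons and 0.389 to 0.578 for glia. Per kilobase of all exons, Pm2 was the only population with more Pfk than Hex-A, in all 3 of its libraries. With the longest transcript in place of all exons, the ranges of Pfk and Hex-A overlapped in T4 (means 84.1 and 91.7 CPM per kb). In Pm2 the means were then 142 for Pfk and 82.2 for Hex-A. With 3 libraries against 3, an exact permutation test cannot fall below 0.10, and none is given for these ratios.

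Across the 12 libraries the members varied together to different degrees, Hex-A the least. The Pearson correlation of a member's log2 CPM with the mean of the other 9 was 0.970 for Pgi, 0.961 for Eno, 0.959 for Gapdh2, 0.948 for Gapdh1, 0.936 for Pgk, 0.895 for Tpi and 0.847 for Ald. It was lower for PyK (0.732) and Pfk (0.632), and 0.290 for Hex-A. Hex-A was nearer to Gapdh1 (0.532) and Eno (0.504) than to the other members, and Pfk with Ald reached 0.486. The closest pair was Tpi and Pgk (0.968), and the pair furthest apart was Hex-A and PyK (-0.250). The 12 points form 4 groups and share depth and scaling, so these values describe the pattern of population means and carry no p.

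Outside the members, 3475 genes with a mean of at least 50 CPM were ranked by the same correlation with the members' mean. The 5 most alike were CG1640 (0.987), Hexo2 (0.969), Dat (0.969, now named speck), CG31690 (0.968) and CG17691 (0.967, now named BckdhB). CG1640 was at 183 CPM in T4, 485 in Pm2, 339 in neurons and 469 in glia, and CG31690, now named Tmtc1, at 36.0, 64.4, 54.5 and 69.4 CPM in the same order. Hexo2, Dat and CG17691 differed more between populations, with means between 2.09 and 4.95 CPM in T4 and up to 885 CPM in Pm2.

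Pglym78, the phosphoglycerate mutase between Pgk and Eno, is the step not among the 10. It was at 338 ± 41.8 CPM in T4, 712 ± 36.2 in Pm2, 636 ± 104 in neurons and 451 ± 6.33 in glia. It was lower in T4 than in Pm2 (log2 -1.08 ± 0.13, edgeR adjusted p = 7.12e-05), as its neighbours were. Unlike Eno it was also lower in glia than in neurons (log2 -0.50 ± 0.13, edgeR adjusted p = 0.00504). Paralogs of the members were scarce: the hexokinase Hex-C was at or under 0.51 CPM as a mean in each population, Hex-t2 and CG2964 were at 0 in all 12 libraries, and the pyruvate kinase relative CG7069 had means of 0.758 to 10.8 CPM. Of 14 other glycolysis genes, 8 were tested. In glia against neurons, 4 were higher and 2 lower, and in T4 against Pm2, 2 were higher and 1 lower. These counts are near the shares of all genes called in either direction, 68.7% and 36.4%.

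**Figure D5:**
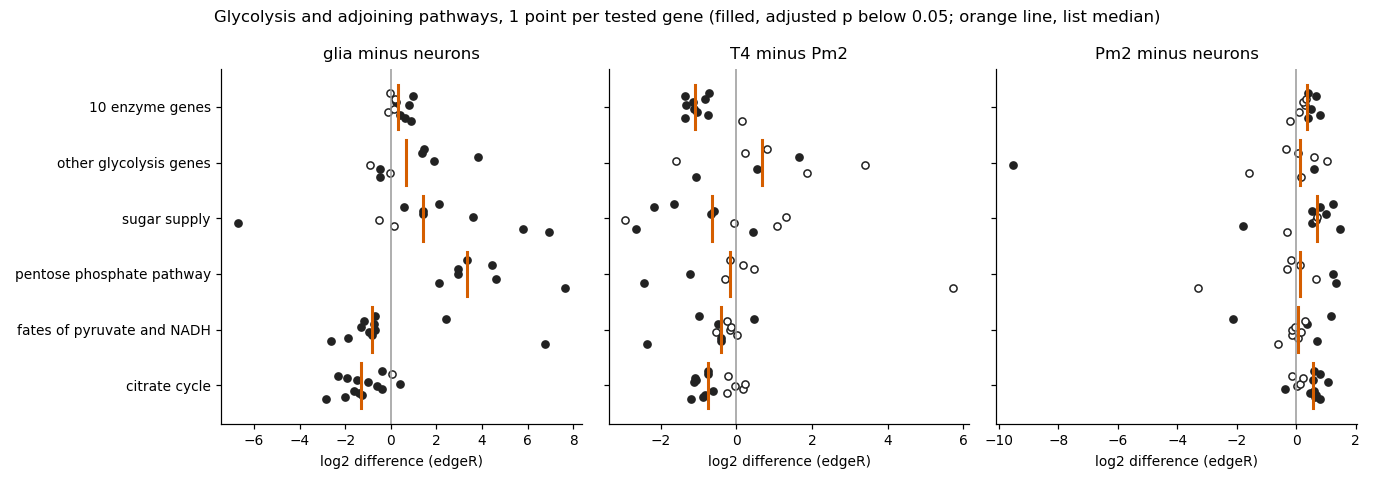
Each point is a tested gene of a pathway list, placed by its log2 difference (edgeR) in glia minus neurons, T4 minus Pm2 or Pm2 minus neurons, filled where called, with the list median as an orange line. In the first panel the 10 enzyme genes have a median of 0.32 and the citrate cycle genes one of -1.32; points far out, such as fbp and Zw in the panels with Pm2, belong to genes with no count there, and their size depends on the prior count.

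Pathways that feed and drain glycolysis differed more between glia and neurons than the members did. All 7 pentose phosphate genes were higher in glia, with a list median of 3.34 and Tal, the transaldolase, at 141 ± 14.9 against 13.9 ± 2.73 CPM. Of 10 sugar supply genes, 7 were higher and 1 lower in glia. Over all genes, 30.9% were called higher and 37.8% lower. Treh, which splits trehalose, was at 7882 ± 1158 CPM in glia against 63.4 ± 3.02 CPM in neurons (log2 6.96 ± 0.17, edgeR adjusted p = 1.27e-10). Tret1-1, a trehalose transporter, was at 608 ± 123 against 10.7 ± 5.38 CPM. The sugar transporter Glut1 was the one lower, at 5.25 ± 1.56 against 554 ± 39.6 CPM.

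Downstream of pyruvate the direction was the opposite for most genes. Of 14 citrate cycle genes, 12 were lower and 1 higher in glia than in neurons, against 37.8% and 30.9% of all genes. The citrate synthase kdn was at 82.0 ± 9.98 against 591 ± 46.3 CPM. Of 11 tested genes for the fates of pyruvate and NADH, 9 were lower in glia. The 2 that were higher were ImpL3, the lactate dehydrogenase now named Ldh, at 438 ± 172 against 4.07 ± 0.859 CPM, and Pdk, which inhibits pyruvate dehydrogenase, at 947 ± 24.0 against 177 ± 7.85 CPM. Gpdh, which uses NADH to make glycerol phosphate, was lower in glia (79.7 ± 6.13 against 495 ± 68.1 CPM, log2 -2.64 ± 0.13, edgeR adjusted p = 1.70e-08).

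In T4 against Pm2, 9 of 14 citrate cycle genes were lower and none higher (median -0.76), so most of them had the direction of the members. Over all genes, 18.4% were called lower, 18.0% higher and 36.4% in either direction. Of the sugar supply genes 5 were lower and 1 higher in T4, and Glut1 was not called (758 ± 83.7 against 796 ± 37.9 CPM, log2 -0.07, edgeR adjusted p = 0.82). Of the pentose phosphate genes 2 were lower and 5 were not called. Pm2 against neurons had 9 citrate cycle genes higher and 1 lower (median 0.58), against 15.5% and 20.1% of all genes. T4 against neurons had 4 lower and 1 higher, against 14.5% and 8.67% of all genes, while no pentose phosphate gene was called.

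Among 8 regulators of glycolytic genes, ERR, the nuclear receptor that drives glycolytic genes in fly larvae, was low everywhere, at 12.4 ± 1.17 CPM in T4, 9.66 ± 0.761 in Pm2, 13.3 ± 1.66 in neurons and 15.8 ± 1.23 in glia. It was not called between glia and neurons (log2 0.25 ± 0.17, edgeR adjusted p = 0.211) or between T4 and Pm2 (0.36 ± 0.17, 0.133), and it was called lower in Pm2 than in glia (-0.71 ± 0.17, 0.00368). The hypoxia factor sima had 2188 ± 369 CPM in glia against 162 ± 11.8 in neurons (log2 3.76 ± 0.14, edgeR adjusted p = 1.92e-09) and 573 ± 34.6 in Pm2 against 201 ± 13.1 in T4 (T4 minus Pm2 -1.51 ± 0.13, 5.13e-06). Of the 8, 5 were higher in glia than in neurons, where 30.9% of all genes were called higher and 68.7% in either direction. In T4 against Pm2, 3 were higher and 1 lower, against 18.0% and 18.4% of all genes.

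Some other transcripts that can follow cell state were also low in T4. The 13 mitochondrially encoded protein genes summed to 3010 to 3422 CPM for T4, with 4894 to 10312 CPM for Pm2, 8092 to 16339 CPM for neurons and 11165 to 13013 CPM for glia. Replicate 1 was the high one in Pm2 (mt:CoI 3232 CPM against 1681 and 1602) and the low one in neurons (1554 against 3861 and 4035). Of the 13 genes, 8 were lower in T4 than in Pm2, 12 lower than in neurons and 13 lower than in glia. The shares of all genes called lower in T4 were 18.4%, 14.5% and 32.2% in the same order. All 5 tested heat-shock genes were lower in T4 than in Pm2 and 4 were lower than in neurons. Their sums were 1499 to 1619 CPM in T4, 3187 to 3417 in Pm2 and 1509 to 1570 in neurons, so T4 and neurons overlapped. Most of each sum was Hsp83, with means of 1542 ± 62.1 CPM in T4 and 1378 ± 38.5 in neurons. The part of the mitochondrial and heat-shock transcripts in the members' differences was not tested. Photoreceptor markers summed to at most 16.9 CPM and fat body markers to at most 51.6 CPM in any library. Haemocyte markers ran from 52.5 to 242 CPM, lowest in T4, and muscle markers from 88.5 to 218 CPM, highest in glia.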

How the data were processed

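Full-length cDNA was made from sorted cells with SMART-Seq v4 and sequenced as Nextera XT libraries, per the labels. The submitters' processing notes name Trimmomatic 0.32, STAR 2.5.2, HTSeq 0.6.1 and the BDGP6 build. The deposited table calls its values normalized, but they are whole numbers with differing totals and were analysed as the authors' counts per gene. Elav columns could not be tied to single titles, so neuron replicate numbers are column numbers. Gene names were matched to the Ensembl annotation of BDGP6 (11996 symbols, 4144 synonyms, 132 unmatched).

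The fit took in the 10528 genes that reached 10 counts in 3 or more of the 12 libraries, by group, in edgeR 4.0.16 under R 4.3.3, with TMM scaling and the two-sided quasi-likelihood F test. Benjamini-Hochberg adjustment ran over all genes tested. SEs came from the log2 difference and its F value. The fit was also run on simulated counts with few changed genes, balanced in direction. That run cannot test the scaling under the many differences seen between populations. CPM are per 1000000 scaled counts. Levels between genes are per kilobase of the union of annotated exons. Alternatives were other scalings, filters, DESeq2 1.42.0, limma 3.58.1, 6 libraries only and leaving out each library. Counts over the members are read beside those over all genes, without a test of the list.

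The members and lists were chosen with earlier results of these data known. All members are named, as are Pglym78, ImpL3, Gpdh, Treh, Tret1-1 and ERR; from other lists, up to 4 called genes per comparison by adjusted p were eligible. Glut1, Tal, kdn, Pdk and sima were taken from these, while CG7069, Hex-C, Hex-t2 and CG2964 are named as paralogs of members, chosen after their values were seen. The genes crq, Pxn, Tm1, Mlc2, Hsp83 and mt:CoI are named for their part in list sums, also after their values were seen. The listed genes sln, CG3409 and Hsp22 matched no row. Promoter and protein sequences were not used here.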

Additional observations from a re-analysis of the deposited data

How the results depend on the processing

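Of 960 log2 differences of members recomputed under alternatives, 835 kept their direction and side of the threshold, 54 lost the call, 38 gained one and 33 changed sign. Members called in Pm2 minus neurons, 5, became 9 with no scaling and 2 to 6 on leaving out single libraries; the other counts of members and of genes called stayed within 1.5 times. The signs that changed, on the log2 scale, were as follows. Under library totals, glia minus neurons was -0.24 for Tpi, -0.12 for Gapdh2 and -0.19 for Pgk, T4 minus neurons 0.0072 for Hex-A, Pm2 minus neurons -0.0011 for Ald, T4 minus glia 0.082 for Pfk and 0.12 for PyK, and Pm2 minus glia 0.043 for Pgi. With no scaling, glia minus neurons was 0.011 for Ald and 0.11 for PyK, T4 minus neurons 0.22 for Hex-A and 0.00026 for PyK, Pm2 minus neurons 0.14 for Hex-A, and Pm2 minus glia 0.042 for Pgi. After quantile normalization with limma, glia minus neurons was -0.019 for Tpi and -0.15 for Gapdh2, Pm2 minus neurons -0.14 for Ald, and T4 minus glia 0.12 for PyK. Median-of-ratios scaling and DESeq2 both gave 0.027 for Ald and 0.11 for PyK in glia minus neurons, and -0.13 for Gapdh2 in Pm2 minus glia. A filter at 100 counts gave 0.036 for PyK in glia minus neurons and -0.055 for Gapdh2 in Pm2 minus glia, where the 6 compared libraries alone gave -0.0031. Leaving out single libraries gave -0.12 to 0.14 for PyK in glia minus neurons, -0.16 to 0.052 for Hex-A in T4 minus neurons and -0.031 to 0.027 for Gapdh2 in Pm2 minus glia. Only Gapdh2 in glia minus neurons and Pfk in T4 minus glia were called values that changed sign, and the cause was not tested.

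Scaling also moved the centre: the median of all genes in glia minus neurons was -0.17 with TMM and -0.52 with library totals, and in T4 minus neurons -0.06 with TMM and 0.22 with no scaling. The percent of called genes that were higher went from 37.4 to 65.7 (no scaling) and 53.3 (quantile) in T4 minus neurons, from 43.7 to 66.4 and 57.1 in Pm2 minus neurons, and from 49.4 to 61.1 (library totals) in T4 minus Pm2.

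No pairing by replicate number was assumed: between T4, Pm2 and glia, the deviations of same-numbered libraries from their group means had correlations of -0.0286 to 0.0247. With the number as a replicate block in the 9 libraries of these groups, 9, 8 and 6 members were called in T4 minus Pm2, T4 minus glia and Pm2 minus glia, and 2740, 6388 and 6179 genes. The same 9 libraries without a block, a fit added after seeing the data, gave 9, 9 and 6 members and 3483, 6804 and 6639 genes. Neurons carry no such numbers. The motif search in promoters was not run. Low genes limit the paralog values, since means near 0.5 CPM rest on few counts.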
